A study of Mus musculus with 16 samples.

Results

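Endothelial cells line blood and lymphatic vessels, and 37 genes that mark them or act in vessel growth were followed here in the mouse uterus. The genes were chosen as a list of names, with earlier results of these data known, and each was found on the array through the RefSeq accession of its probes. They comprise 10 vessel wall and junction proteins, 9 receptors, 6 ligands, 6 transcription factors, 5 leukocyte adhesion molecules and 1 further lymphatic gene. Of the 37, 36 were tested among 24651 genes and unnamed array targets, of which 16528 carried a symbol.

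Vascular endothelial growth factors bind receptor tyrosine kinases on endothelial cells and drive them to divide and sprout, while angiopoietins acting on the receptor Tek steady or loosen the vessel wall. Lymphatic vessels use the same growth factor family through the receptor Flt4, and the transcription factor Prox1 sets lymphatic identity. Inflamed endothelium shows selectins and intercellular adhesion molecules on its surface, which capture leukocytes from the blood. In the uterus, vessels grow and regress under ovarian steroids, and glucocorticoids are known to restrain inflammation in vessels of many tissues.

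RNA of the entire uterus was measured on 16 Agilent 1-colour arrays, 4 in each of 4 groups. GenD mice were given genistein, an estrogen receptor ligand from soy, at 50 mg/kg on postnatal days 1 to 5, and 1 mg/kg of the synthetic glucocorticoid dexamethasone as adults. GenV mice received the same neonatal genistein and, as adults, 100 µl of saline vehicle. SalD mice received the neonatal control and adult dexamethasone, and SalV mice received the neonatal control and adult vehicle. The neonatal control is named saline in the sample labels and 20 µl corn oil in the description of the series. Every mouse had lost adrenals and ovaries at 6 weeks of age, so the groups share the absence of the main sources of corticosterone and ovarian steroids, and was treated by intraperitoneal injection at 8 weeks. Tissue was taken 4 h later. The title of the series asks whether early genistein alters glucocorticoid signalling in the adult uterus. No strain is stated in the sources used here, and the labels do not tie arrays to animals, so the p-values measure the spread between arrays, which may be technical. With 4 arrays in a group, that number limits the precision of every value.

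The 75th percentile of spot signal ran from 948 to 2719 between arrays, and the share of spots well above background was 68.9 to 81.3%. Values are given as scaled log2 signal, which is log2 of the background-corrected signal minus the 75th percentile of its array. A difference of 1 on this scale is 2-fold, and levels are not compared between genes because probes differ in brightness. The glucocorticoid-induced genes Fkbp5 and Tsc22d3 were higher by 4.44 ± 0.38 and 2.42 ± 0.22 (SE, log2) in SalD than in SalV, with limma adjusted p-values of 1.58e-05 and 2.21e-05. After genistein, in GenD over GenV, these differences were 4.56 ± 0.38 and 2.40 ± 0.22 (adjusted p = 1.64e-05 and 2.23e-05). On the first and second principal components of the 24651 tested features, which held 29.7% and 18% of the variance, GenV arrays 3 and 4 lay away from GenV arrays 1 and 2 and SalV array 1 away from the other SalV arrays. Adipocyte markers were high on SalD arrays 2 and 3.

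Of the 37 genes, 35 were well above background on all 16 arrays. Prox1 passed on 12 arrays. Sele, the selectin that endothelium makes when activated, passed on 2 arrays, 1 of GenV and 1 of SalV, and on no dexamethasone array. It was therefore not tested. No spot of the 37 genes was saturated.

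Adult dexamethasone was accompanied by lower signal of 6 of 9 receptors and 3 of 4 tested leukocyte adhesion molecules in neonatal controls, while Pecam1 and Cdh5, adhesion proteins of endothelial contacts, were not called. In SalD against SalV, 0 of 36 tested genes rose, 17 fell and 19 were not called. An adjusted p below 0.05 in limma counts as a call throughout, and 14.6% of all tested features were called lower, 8.45% higher and 23% in either direction. The median log2 difference of the 36 genes was -0.524, beside -0.160 for all features. After neonatal genistein, GenD against GenV, 1 gene rose, 3 fell and 32 were not called, where 2.49% of all features were called higher, 2.8% lower and 5.29% in either direction. Here the median was -0.289, beside -0.015 for all features. Without GenV arrays 3 and 4, 4 genes fell and none rose in GenD against GenV (Aplnr, Plvap, Selp and Vegfc), Vegfa was not called, and the median was -0.348 beside -0.100. These arrays also enter the shared estimate of spread, and without them 17 genes fell and 1 rose (Sox17) in SalD against SalV. Of all 24651 features without them, 932 fell and 519 rose in GenD against GenV. In SalD against SalV, 4231 features then fell and 2410 rose. In bulk tissue, fewer endothelial cells and less RNA per endothelial cell cannot be told apart.

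**Figure D1:**
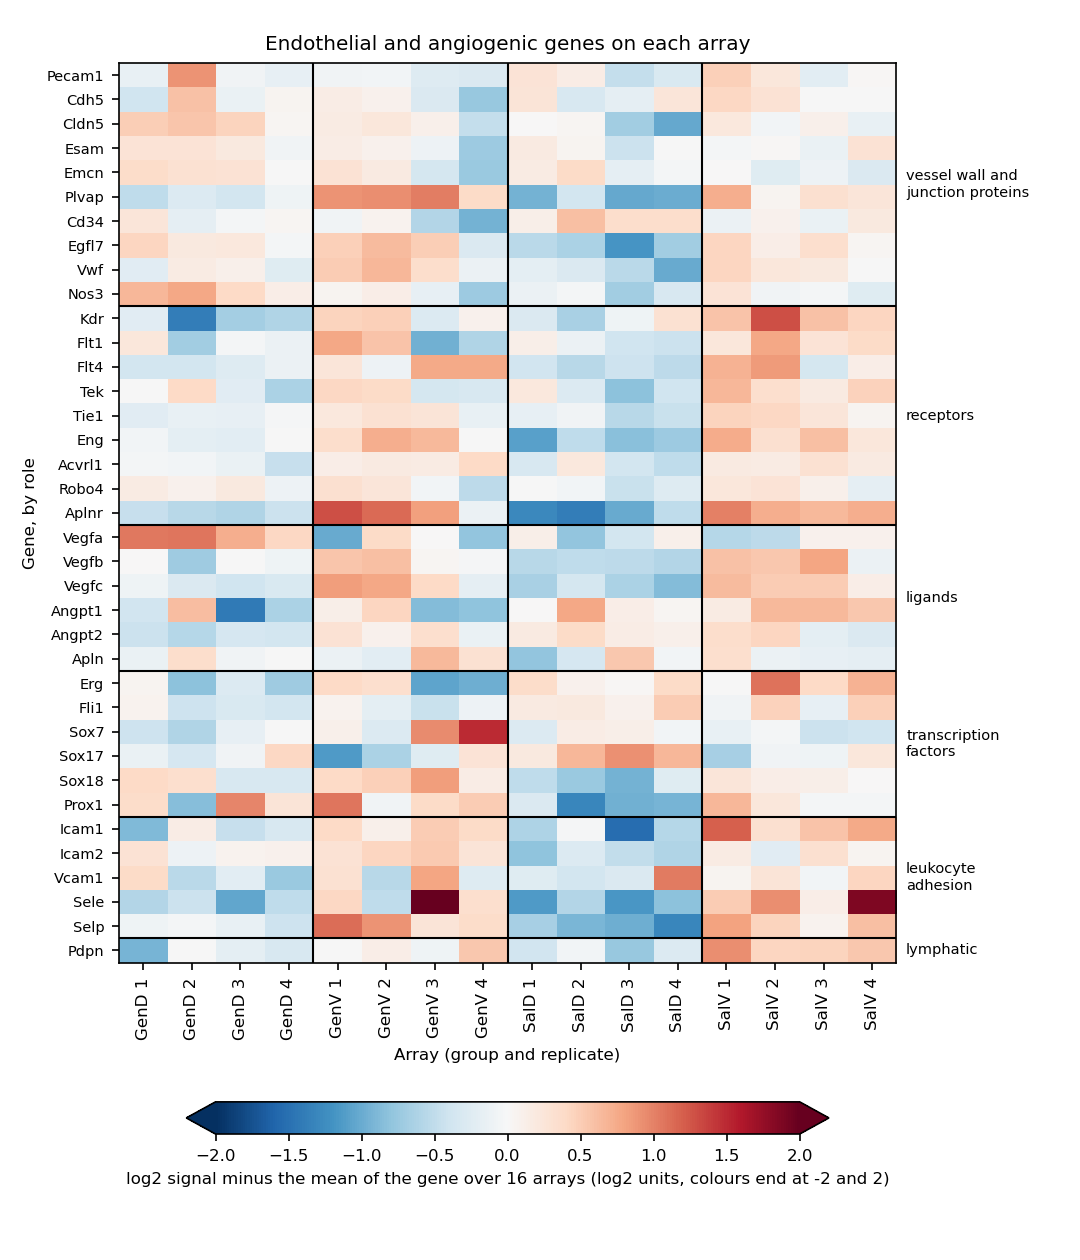
Each row is 1 of the 37 genes, ordered by role, and each column 1 array, in the order GenD, GenV, SalD and SalV; colour gives the log2 signal minus the mean of the gene over 16 arrays. The SalD columns are bluest on average over the receptors and over the leukocyte adhesion molecules, although Kdr and Vcam1 are lowest in GenD. Egfl7, Plvap, Prox1, Vegfb, Vegfc, Sox18 and Vwf are also bluest in SalD.

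The scaling of the arrays sets where 0 lies in these comparisons. The median of all features in SalD over SalV was -0.160 with the 75th percentile, 0.068 with median scaling, -0.038 with quantile normalization and -0.492 with normexp background correction. Minus that median, the median of the 36 genes was -0.364, -0.364, -0.520 and -0.066 in the same order. The number called lower was 17, 9, 14 and 12. Over all 24651 features, 3587, 1864, 2521 and 2209 were called lower in the same order. Cd34 and Sox17 were called higher under median scaling, and Sox17 also under normexp. For 9 genes, Aplnr, Egfl7, Eng, Icam1, Pdpn, Plvap, Selp, Vegfb and Vegfc, the fall in SalD was called under each of 26 alternatives.

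Among the 10 vessel wall and junction proteins, 3 fell in SalD against SalV (Plvap, Egfl7 and Vwf) and none rose. In GenD against GenV, Plvap fell and the other 9 were not called. Plvap forms the diaphragms of fenestrae and caveolae in endothelium. Its scaled log2 signal was -0.76, -0.52, -0.60 and -0.33 on the GenD arrays, against 0.65, 0.68, 0.78 and 0.14 on the GenV arrays. In neonatal controls it was -1.18, -0.61, -1.26 and -1.24 on the SalD arrays, against 0.49, -0.18, 0.086 and -0.00063 on the SalV arrays. Every dexamethasone array read below every vehicle array. The log2 fold change was -1.17 ± 0.19 (SE, adjusted p = 0.00147) in SalD over SalV, a 2.25-fold lower signal. GenD over GenV gave -1.12 ± 0.19 (SE, adjusted p = 0.00388), 2.17-fold lower.

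Egfl7 is a secreted protein that endothelial cells lay down around growing vessels. Signals of Egfl7 were 3.42, 3.18, 3.2 and 2.96 on the GenD arrays, against 3.46, 3.62, 3.48 and 2.71 on the GenV arrays. They were 2.45, 2.36, 1.81 and 2.3 on the SalD arrays, against 3.42, 3.12, 3.33 and 3.03 on the SalV arrays. SalD stood below the other 3 groups without overlap, and GenD overlapped GenV. The SalD over SalV difference was -1.0 ± 0.20 (SE, adjusted p = 0.00457), and the GenD over GenV difference was -0.13 ± 0.20 (SE, adjusted p = 0.831). Von Willebrand factor, encoded by Vwf, is stored in endothelial cells and platelets and tethers platelets to damaged vessels. Vwf read 0.87, 1.26, 1.19 and 0.86 on the GenD arrays, against 1.6, 1.77, 1.45 and 0.98 on the GenV arrays. It read 0.90, 0.81, 0.56 and 0.086 on the SalD arrays, against 1.52, 1.32, 1.3 and 1.09 on the SalV arrays. SalD lay below SalV without overlap, while GenD and GenV overlapped. On the log2 scale Vwf differed by -0.72 ± 0.20 (SE, adjusted p = 0.0224) in SalD, and -0.41 ± 0.20 (SE, adjusted p = 0.323) in GenD over GenV. With slide as a block, the adjusted p of Vwf in SalD over SalV was 0.0767.

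Claudin 5, the tight junction protein encoded by Cldn5, read 4.14, 4.2, 4.09 and 3.69 on the GenD arrays, against 3.81, 3.87, 3.74 and 3.16 on the GenV arrays. In neonatal controls Cldn5 read 3.66, 3.68, 2.94 and 2.62 on the SalD arrays, against 3.84, 3.59, 3.74 and 3.49 on the SalV arrays. Dexamethasone and vehicle arrays overlapped in both neonatal arms, but each GenD array exceeded each SalD array, by a small margin at the closest pair. Endothelial nitric oxide synthase, encoded by Nos3, makes the nitric oxide that relaxes vessels. Nos3 gave -0.43, -0.31, -0.69 and -0.96 on the GenD arrays, against -1.04, -0.96, -1.26 and -1.81 on the GenV arrays. It gave -1.22, -1.14, -1.78 and -1.41 on the SalD arrays, against -0.82, -1.16, -1.14 and -1.33 on the SalV arrays. GenD arrays 1, 2 and 3 were the highest in Nos3, and GenD did not overlap SalD. Neither Cldn5 nor Nos3 was called in a comparison of dexamethasone with vehicle, with -0.44 ± 0.24 (SE, adjusted p = 0.189) and -0.27 ± 0.21 (SE, adjusted p = 0.373) in SalD over SalV and 0.38 ± 0.24 (SE, adjusted p = 0.447) and 0.67 ± 0.21 (SE, adjusted p = 0.093) in GenD over GenV.

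Pecam1, Cdh5, Esam, Emcn and Cd34 were not called in either dexamethasone comparison. Pecam1, an adhesion protein of endothelial contacts, ran -1.45 to -0.39 in GenD, -1.59 to -1.35 in GenV, -1.77 to -1.01 in SalD and -1.5 to -0.81 in SalV. Cdh5, the cadherin of endothelial junctions, ran -1.24 to -0.25 in GenD, -1.59 to -0.69 in GenV, -1.15 to -0.58 in SalD and -0.84 to -0.42 in SalV. All groups of Pecam1 and of Cdh5 overlapped. The 95% interval of the SalD over SalV difference was -0.75 to 0.30 for Pecam1 and -0.69 to 0.34 for Cdh5. A brighter Cdh5 probe, without a value on GenV array 2 because its spot was an outlier, gave 0.046 (adjusted p = 0.893) on 15 arrays. Esam, a junction adhesion molecule, ran 1.45 to 1.79 in GenD, 0.79 to 1.67 in GenV, 1.09 to 1.7 in SalD and 1.38 to 1.81 in SalV. Emcn, the sialomucin of capillaries and veins, ran 3.21 to 3.58 in GenD, 2.47 to 3.51 in GenV, 3.04 to 3.6 in SalD and 2.93 to 3.24 in SalV. Cd34, a surface sialomucin shared with stromal and blood progenitor cells, ran 4.88 to 5.3 in GenD, 4.12 to 5.13 in GenV, 5.18 to 5.65 in SalD and 4.93 to 5.26 in SalV. Cd34 was higher by 0.34 ± 0.20 (SE) in SalD than in SalV without a call (adjusted p = 0.23), against the direction of the 3 genes that fell.

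**Figure D2:**
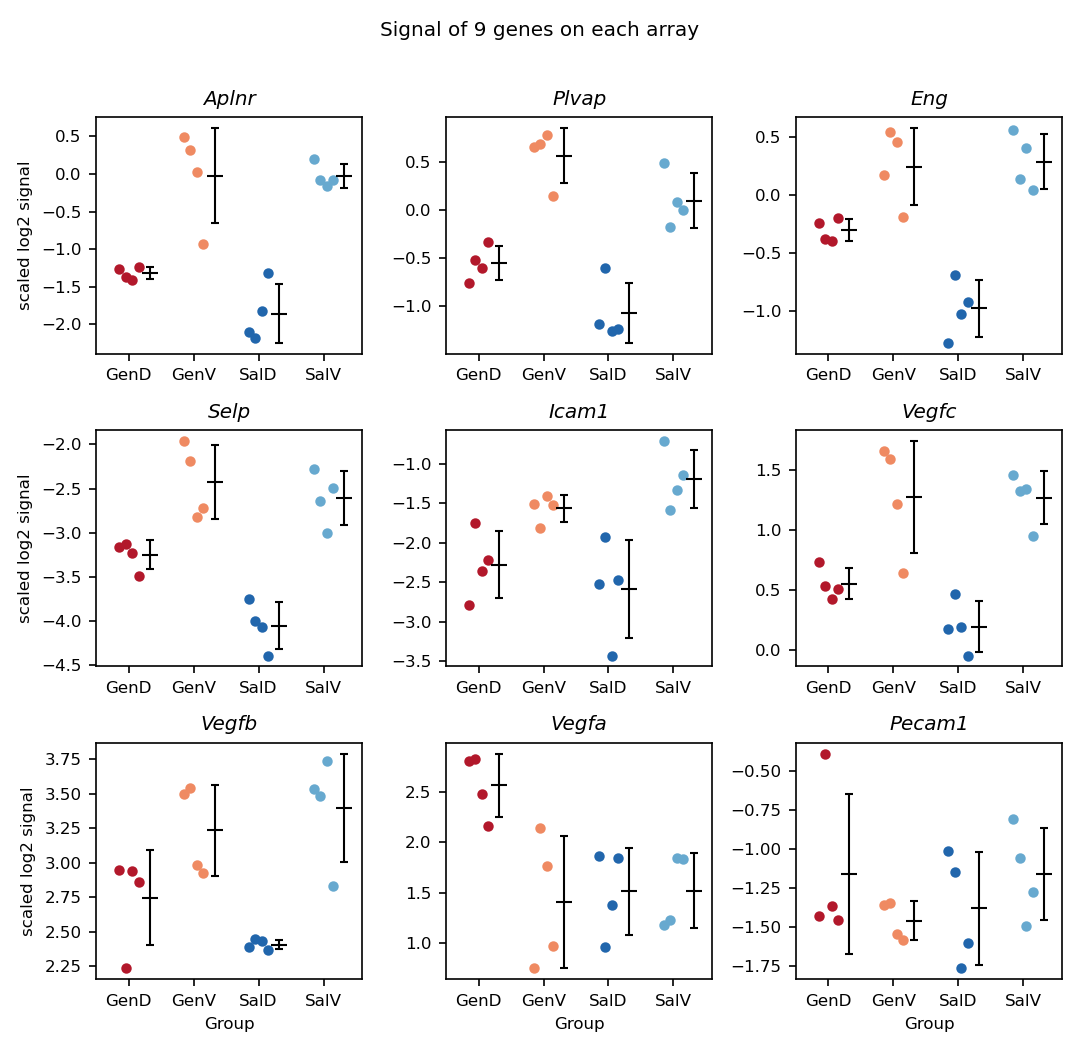
Scaled log2 signal of 9 genes on each array by group, GenD, GenV, SalD and SalV from left to right, with the mean and SD of the 4 arrays beside the points; the vertical axes differ between panels. Aplnr, Plvap and Selp separate dexamethasone from vehicle in both neonatal arms, Vegfa is highest in GenD, and Pecam1 overlaps across groups.

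All 9 receptors had a negative difference in SalD over SalV and 6 of them fell: Aplnr, Eng, Kdr, Flt4, Tie1 and Acvrl1. In GenD over GenV 8 were negative, and Aplnr was the receptor called. Of all features, 60.5% were negative in SalD over SalV and 51.7% in GenD over GenV. Aplnr encodes the receptor for apelin, a G-protein coupled receptor of sprouting and venous endothelium. Aplnr read -1.27, -1.37, -1.41 and -1.24 on the GenD arrays, against 0.49, 0.32, 0.019 and -0.93 on the GenV arrays. The control arms read -2.1, -2.18, -1.81 and -1.32 on the SalD arrays, against 0.20, -0.078, -0.15 and -0.087 on the SalV arrays. All dexamethasone arrays lay below all vehicle arrays, with GenV array 4 the lowest of the vehicle arrays. The log2 fold change was -1.83 ± 0.26 (SE, adjusted p = 0.000619) in SalD over SalV, 3.54-fold lower, and -1.29 ± 0.26 (SE, adjusted p = 0.0105) in GenD over GenV, 2.45-fold lower. A dimmer Aplnr probe gave -2.18 in SalD over SalV and -1.07 in GenD over GenV.

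Endoglin, encoded by Eng, is a coreceptor for ligands of the transforming growth factor beta family on endothelium. Its signal was -0.25, -0.38, -0.40 and -0.20 on the GenD arrays, against 0.17, 0.54, 0.46 and -0.19 on the GenV arrays. Without genistein it was -1.28, -0.69, -1.03 and -0.92 on the SalD arrays, against 0.56, 0.14, 0.41 and 0.041 on the SalV arrays. The SalD arrays were lowest, the GenD arrays next, and neither overlapped its vehicle group or the other. On the log2 scale Eng differed by -1.27 ± 0.18 (SE, adjusted p = 0.000572) in SalD, 2.41-fold lower, and -0.55 ± 0.18 (SE, adjusted p = 0.101) in GenD over GenV. Acvrl1, the type I receptor that signals beside endoglin, read -0.55, -0.57, -0.64 and -0.98 on the GenD arrays, against -0.38, -0.33, -0.34 and -0.12 on the GenV arrays. It read -0.84, -0.30, -0.88 and -1.02 on the SalD arrays, against -0.34, -0.34, -0.21 and -0.34 on the SalV arrays. GenD lay below GenV without overlap, whereas SalD array 2 fell among the SalV arrays. The difference was -0.45 ± 0.15 (SE, adjusted p = 0.0478) in SalD over SalV and -0.39 ± 0.15 (SE, adjusted p = 0.179) in GenD over GenV. The SalD call was lost in 20 of 26 alternatives.

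Kdr is the main signalling receptor for Vegfa. Kdr signals were 0.38, -0.76, -0.062 and 0.01 on the GenD arrays, against 1.06, 1.09, 0.35 and 0.70 on the GenV arrays. They were 0.32, -0.024, 0.53 and 0.93 on the SalD arrays, against 1.18, 1.91, 1.2 and 1.05 on the SalV arrays. SalD and SalV did not overlap, and GenD overlapped GenV through GenD array 1. Kdr differed by -0.90 ± 0.28 (SE, adjusted p = 0.0331) in SalD and -0.91 ± 0.28 (SE, adjusted p = 0.0792) in GenD. With slide as a block the SalD difference was -0.90 with an adjusted p of 0.0663. Flt4, the receptor for Vegfc on lymphatic endothelium, read -3.28, -3.28, -3.17 and -3.02 on the GenD arrays, against -2.67, -3.02, -2.15 and -2.15 on the GenV arrays. It read -3.3, -3.47, -3.32 and -3.43 on the SalD arrays, against -2.22, -2.05, -3.26 and -2.78 on the SalV arrays. Dexamethasone arrays lay below vehicle arrays in each neonatal arm, closely where GenD array 4 neighboured GenV array 2 and SalD array 1 neighboured SalV array 3. The differences were -0.80 ± 0.25 (SE, adjusted p = 0.0318) and -0.69 ± 0.25 (SE, adjusted p = 0.135) in SalD and GenD over their vehicle groups. The SalD call of Flt4 was lost in 11 alternatives and that of Kdr in 9.

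Tie1, an orphan receptor that modulates Tek signalling, read -0.51, -0.45, -0.45 and -0.31 on the GenD arrays, against -0.078, 0.017, -0.033 and -0.44 on the GenV arrays. In the control arms Tie1 read -0.46, -0.36, -0.84 and -0.73 on the SalD arrays, against 0.15, 0.13, -0.048 and -0.24 on the SalV arrays. SalD lay below SalV, and GenV array 4 reached into the GenD range. The difference was -0.60 ± 0.15 (SE, adjusted p = 0.0117) in SalD and -0.30 ± 0.15 (SE, adjusted p = 0.312) in GenD. The remaining receptors were not called in any comparison. Tek, the angiopoietin receptor, ran -2.0 to -0.97 in GenD, -1.72 to -0.95 in GenV, -2.19 to -1.17 in SalD and -1.19 to -0.71 in SalV. Flt1, a receptor that binds Vegfa and signals weakly, ran 0.97 to 1.88 in GenD, 0.71 to 2.44 in GenV, 1.24 to 1.79 in SalD and 1.89 to 2.43 in SalV. Robo4, a receptor that stabilises vessels, ran 2.68 to 2.98 in GenD, 2.26 to 3.09 in GenV, 2.33 to 2.77 in SalD and 2.6 to 3.05 in SalV. Tek and Flt1 differed by -0.73 ± 0.26 (SE, adjusted p = 0.0582) and -0.62 ± 0.34 (SE, adjusted p = 0.197) in SalD over SalV. A dimmer Flt1 probe had the opposite sign, 0.28.

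Of the 6 ligands, Vegfb and Vegfc fell in SalD against SalV and none rose. Vegfa rose in GenD against GenV and no ligand fell there. Vegfc acts on Flt4 and drives lymphatic growth. Vegfc read 0.73, 0.53, 0.42 and 0.51 on the GenD arrays, against 1.66, 1.59, 1.22 and 0.64 on the GenV arrays. It read 0.18, 0.46, 0.19 and -0.047 on the SalD arrays, against 1.46, 1.33, 1.34 and 0.95 on the SalV arrays. SalD lay below SalV without overlap, and GenV array 4 overlapped GenD. The log2 fold change of Vegfc was -1.07 ± 0.20 (SE, adjusted p = 0.00314) in SalD, 2.1-fold lower, and -0.72 ± 0.20 (SE, adjusted p = 0.0554) in GenD. Vegfb, a ligand of Flt1, read 2.95, 2.23, 2.94 and 2.86 on the GenD arrays, against 3.5, 3.54, 2.98 and 2.92 on the GenV arrays. It read 2.39, 2.44, 2.43 and 2.37 on the SalD arrays, against 3.54, 3.48, 3.74 and 2.83 on the SalV arrays. The 4 SalD arrays lay close together and below every SalV array, while GenD arrays 1 and 3 touched the GenV range. The difference was -0.99 ± 0.22 (SE, adjusted p = 0.00682) in SalD and -0.49 ± 0.22 (SE, adjusted p = 0.252) in GenD, and a dimmer Vegfb probe gave -0.92 in SalD.

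Vegfa, the growth factor that sprouting endothelium follows and that many tissue cells secrete, read 2.81, 2.83, 2.48 and 2.17 on the GenD arrays, against 0.75, 2.14, 1.76 and 0.97 on the GenV arrays. In the control arms Vegfa read 1.86, 0.96, 1.38 and 1.85 on the SalD arrays, against 1.18, 1.23, 1.84 and 1.84 on the SalV arrays. The GenD arrays were above all other arrays, and SalD and SalV overlapped throughout. The difference was 1.17 ± 0.31 (SE, adjusted p = 0.0446) in GenD over GenV, 2.24-fold higher, and -0.0089 ± 0.31 (SE, adjusted p = 0.987) in SalD over SalV. The GenD call was lost in 20 of 26 alternatives, including slide as a block (1.22, adjusted p = 0.101), and the 3 dimmer Vegfa probes gave 0.39, 0.80 and 0.28. Angpt2, which opposes Angpt1 at Tek, read 0.19, 0.054, 0.29 and 0.25 on the GenD arrays, against 0.91, 0.71, 0.96 and 0.48 on the GenV arrays. It read 0.80, 1.0, 0.76 and 0.73 on the SalD arrays, against 0.98, 1.05, 0.42 and 0.33 on the SalV arrays. GenD lay below every other array. Angpt2 differed by -0.57 ± 0.17 (SE, adjusted p = 0.0762) in GenD and 0.13 ± 0.17 (SE, adjusted p = 0.629) in SalD, with no call in either. Angpt1, which activates Tek, ran -6.41 to -4.38 in GenD, -5.87 to -4.58 in GenV, -5.0 to -4.23 in SalD and -4.84 to -4.34 in SalV. A dimmer Angpt1 probe gave -1.47 in SalD over SalV, where the brighter probe gave -0.27. Apln, the ligand of Aplnr, ran -1.73 to -1.25 in GenD, -1.82 to -0.96 in GenV, -2.39 to -1.06 in SalD and -1.78 to -1.26 in SalV, and its groups overlapped.

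Among 6 transcription factors, Sox18 and Prox1 fell in SalD against SalV and none was called in GenD against GenV. Sox18 acts in vessel formation and switches on Prox1 in the mouse embryo. Sox18 read 1.66, 1.6, 0.95 and 0.94 on the GenD arrays, against 1.66, 1.74, 2.1 and 1.42 on the GenV arrays. It read 0.76, 0.53, 0.33 and 1.03 on the SalD arrays, against 1.51, 1.4, 1.38 and 1.28 on the SalV arrays. SalD lay below SalV without overlap, and GenD overlapped GenV. The difference was -0.73 ± 0.21 (SE, adjusted p = 0.0223) in SalD and -0.44 ± 0.21 (SE, adjusted p = 0.279) in GenD. Prox1 read -5.6, -6.82, -5.0 and -5.72 on the GenD arrays, against -4.9, -6.04, -5.59 and -5.47 on the GenV arrays. It read -6.27, -7.28, -6.93 and -6.9 on the SalD arrays, against -5.3, -5.74, -6.01 and -6.01 on the SalV arrays. All SalD arrays of Prox1 lay below all SalV arrays, and GenD arrays spread over most of the range of the GenV arrays. Prox1 was well above background on 2 of 4 SalD and 3 of 4 SalV arrays, and its difference was -1.08 ± 0.35 (SE, adjusted p = 0.0395), lost in 11 of 25 alternatives. The GenD over GenV value was -0.29 ± 0.35 (SE, adjusted p = 0.763).

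The other transcription factors were not called in any comparison. Sox17, a factor of arterial endothelium that uterine epithelium also makes, ran 3.66 to 4.41 in GenD, 2.87 to 4.27 in GenV, 4.19 to 4.91 in SalD and 3.33 to 4.22 in SalV. It was higher by 0.76 ± 0.28 (SE, adjusted p = 0.0659) in SalD, and its dimmer probes gave 0.25 and 0.11. The sign was opposite to that of Sox18. Sox7, the third member of that group, ran 0.10 to 0.69 in GenD, 0.42 to 2.19 in GenV, 0.42 to 0.85 in SalD and 0.27 to 0.66 in SalV. GenV arrays 3 and 4 were the highest for Sox7. Erg, an ETS family factor that keeps endothelial identity, ran -6.4 to -5.52 in GenD, -6.63 to -5.18 in GenV, -5.56 to -5.2 in SalD and -5.58 to -4.49 in SalV. Fli1, a related ETS factor also made by blood cells, ran -0.0025 to 0.49 in GenD, -0.029 to 0.49 in GenV, 0.51 to 0.92 in SalD and 0.25 to 0.89 in SalV. A dimmer Fli1 probe fell by 0.91 in SalD over SalV, where the probe used gave 0.065 ± 0.18 (SE, adjusted p = 0.827).

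Of 4 tested leukocyte adhesion molecules, 3 fell in SalD against SalV (Selp, Icam1 and Icam2) and Selp fell in GenD against GenV. P-selectin, encoded by Selp, is held in granules of endothelial cells and platelets and starts leukocyte rolling. Selp read -3.16, -3.13, -3.22 and -3.49 on the GenD arrays, against -1.96, -2.18, -2.83 and -2.72 on the GenV arrays. It read -3.74, -4.0, -4.06 and -4.39 on the SalD arrays, against -2.28, -2.64, -3.01 and -2.49 on the SalV arrays. Every dexamethasone array was below every vehicle array, and SalD was below GenD. The log2 fold change was -1.44 ± 0.21 (SE, adjusted p = 0.00073) in SalD, 2.72-fold lower, and -0.83 ± 0.21 (SE, adjusted p = 0.0383) in GenD, 1.78-fold lower. The GenD call was lost in 13 of 26 alternatives, and a dimmer Selp probe gave -0.42 in SalD and 0.17 in GenD.

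Icam1 is the adhesion molecule that leukocyte integrins grip on inflamed endothelium, and other cells make it as well. Icam1 read -2.79, -1.75, -2.36 and -2.22 on the GenD arrays, against -1.51, -1.81, -1.4 and -1.53 on the GenV arrays. It read -2.52, -1.92, -3.43 and -2.47 on the SalD arrays, against -0.71, -1.59, -1.33 and -1.15 on the SalV arrays. SalD lay below SalV without overlap, and GenD array 2 reached the GenV range. The difference was -1.39 ± 0.29 (SE, adjusted p = 0.00523) in SalD, 2.63-fold lower, and -0.72 ± 0.29 (SE, adjusted p = 0.201) in GenD. Icam2, a constitutive endothelial relative of Icam1, read 2.01, 1.64, 1.81 and 1.82 on the GenD arrays, against 2.03, 2.17, 2.26 and 1.99 on the GenV arrays. It read 0.93, 1.46, 1.24 and 1.14 on the SalD arrays, against 1.9, 1.5, 2.05 and 1.78 on the SalV arrays. Icam2 on SalD arrays was below every other array. The difference was -0.61 ± 0.15 (SE, adjusted p = 0.0111) in SalD and -0.29 ± 0.15 (SE, adjusted p = 0.335) in GenD. Vcam1, which binds leukocyte integrins on activated endothelium, ran -0.98 to 0.15 in GenD, -0.78 to 0.55 in GenV, -0.61 to 0.80 in SalD and -0.28 to 0.20 in SalV and was not called. A dimmer Vcam1 probe gave -0.64 in SalD over SalV and -0.66 in GenD over GenV, where the probe used gave -0.14 and -0.35. Pdpn, the mucin-like protein of lymphatic endothelium that stromal cells also carry, read -3.27, -2.34, -2.53 and -2.66 on the GenD arrays, against -2.33, -2.2, -2.42 and -1.8 on the GenV arrays. It read -2.72, -2.39, -3.09 and -2.61 on the SalD arrays, against -1.4, -1.9, -1.89 and -1.79 on the SalV arrays. Dexamethasone and vehicle arrays of the control arm did not overlap, and those of the genistein arm did. Pdpn differed by -0.96 ± 0.22 (SE, adjusted p = 0.00774) in SalD and -0.51 ± 0.22 (SE, adjusted p = 0.225) in GenD, and its dimmer probe gave -0.95 in SalD.

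**Figure D3:**
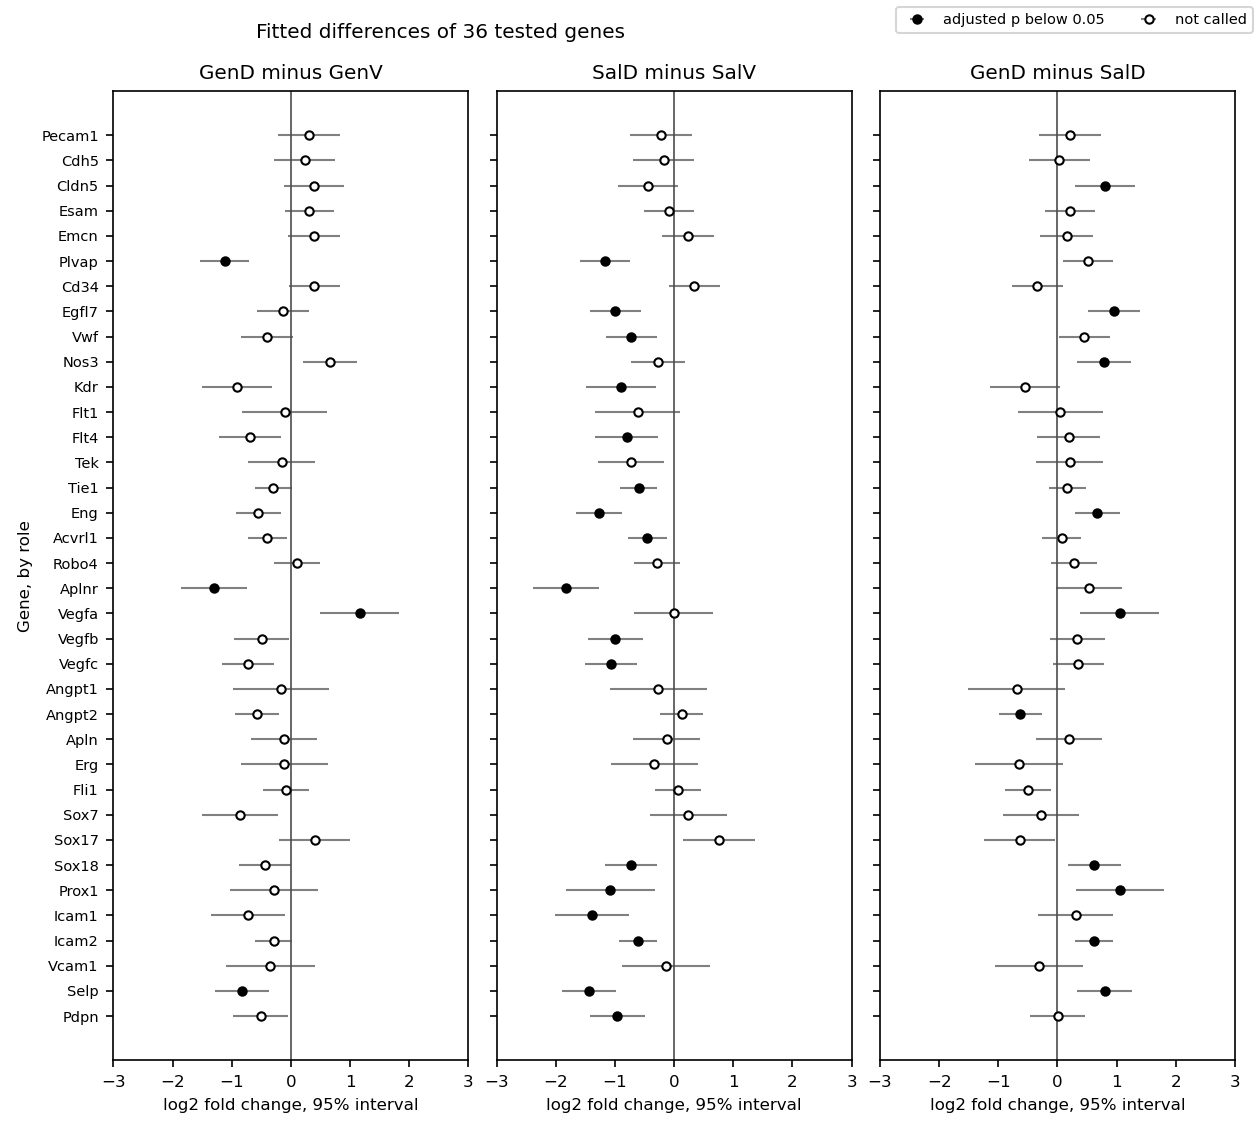
Fitted log2 differences with 95% intervals of the 36 tested genes, ordered by role, for GenD minus GenV, SalD minus SalV and GenD minus SalD; filled points had an adjusted p below 0.05. Filled points lie left of 0 for 17 genes in SalD minus SalV, and for 3 of 4 in GenD minus GenV.

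Promoters were looked up for all 37 genes in the RefSeq sequence table of build GRCm38.p6, which held 27 windows for 21 of them, each covering 250 bases before to 50 after a transcript start. Letters searched on both strands were AGGAAG, a site core of ETS factors, AACAAT for SOX factors, ACGTG for hypoxia factors and GNACA and TGTNC spaced by 3 bases for the glucocorticoid receptor, plus the NF-kappaB consensus, and no match overlapped a match of another motif. AGGAAG occurred in 12 of the 27 windows and in 35.4% of all 32851 windows of the table. It was present in 4 of 11 genes with a window that fell in SalD against SalV, and in 6 of 9 that were tested and not called. The glucocorticoid motif was in 0 of the 27 windows and 0.475% of all windows. The NF-kappaB consensus was in 3 (Flt1, Kdr and Vegfa) and 4.51% of all windows, AACAAT in 3 (Emcn, Erg and Tek) and 10.7%, and ACGTG in 2 (Pdpn and Vegfa) and 19.6%. Such matches describe letters and no binding. The windows of Eng (chr2:32646345-32646644, plus strand), Tie1 (chr4:118489800-118490099, minus strand) and Selp (chr1:164115014-164115313, plus strand) are shown as genes that fell and hold AGGAAG. The window of Icam1 (chr9:21015690-21015989, plus strand), which fell, matched none of the letters searched. It does hold TGGAAATTCC, which differs from the NF-kappaB consensus searched only in its first letter, where a G was required. The window of Robo4 (chr9:37401722-37402021, plus strand), which was not called, holds AGGAAG. Capitals mark AGGAAG or its reverse complement, read 5′ to 3′ on the strand of the gene.
Eng: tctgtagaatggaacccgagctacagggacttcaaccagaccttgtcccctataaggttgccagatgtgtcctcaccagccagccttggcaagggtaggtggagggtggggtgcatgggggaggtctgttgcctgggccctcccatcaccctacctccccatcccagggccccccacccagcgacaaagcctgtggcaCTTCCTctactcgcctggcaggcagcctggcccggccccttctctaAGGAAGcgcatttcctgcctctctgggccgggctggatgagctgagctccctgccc
Tie1: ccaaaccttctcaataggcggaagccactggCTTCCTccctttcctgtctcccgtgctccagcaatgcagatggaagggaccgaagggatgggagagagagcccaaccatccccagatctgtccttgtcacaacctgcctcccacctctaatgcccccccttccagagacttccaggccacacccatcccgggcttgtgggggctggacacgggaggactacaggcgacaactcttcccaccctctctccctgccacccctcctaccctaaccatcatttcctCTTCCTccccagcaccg
Selp: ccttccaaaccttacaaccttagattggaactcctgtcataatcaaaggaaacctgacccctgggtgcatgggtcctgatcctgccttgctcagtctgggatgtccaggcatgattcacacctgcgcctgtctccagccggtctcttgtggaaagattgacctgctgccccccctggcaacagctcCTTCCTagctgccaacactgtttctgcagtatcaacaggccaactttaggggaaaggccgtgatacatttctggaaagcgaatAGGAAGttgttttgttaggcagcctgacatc
Icam1: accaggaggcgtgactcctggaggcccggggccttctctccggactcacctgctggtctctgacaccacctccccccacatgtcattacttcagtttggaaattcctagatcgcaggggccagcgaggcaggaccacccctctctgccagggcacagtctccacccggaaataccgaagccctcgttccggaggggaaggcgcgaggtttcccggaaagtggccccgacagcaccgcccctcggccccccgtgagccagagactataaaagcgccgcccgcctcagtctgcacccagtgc
Robo4: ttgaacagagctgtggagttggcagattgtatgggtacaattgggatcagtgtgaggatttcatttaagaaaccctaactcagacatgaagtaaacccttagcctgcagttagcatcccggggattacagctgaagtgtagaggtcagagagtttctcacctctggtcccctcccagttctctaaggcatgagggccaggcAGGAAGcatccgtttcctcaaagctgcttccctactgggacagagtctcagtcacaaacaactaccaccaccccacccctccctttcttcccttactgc

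In GenD against SalD, neonatal genistein under dexamethasone, called genes were mostly higher, as were called features over the whole array. Of 36, 9 rose, 1 fell and 26 were not called, where 16.5% of all features were called higher, 6.39% lower and 22.9% in either direction. The share of the 36 genes called in either direction was 27.8%. The median difference was 0.210, beside 0.116 for all features. It was below that of all features under normexp (0.432 beside 0.460) and without SalD array 3 (0.090 beside 0.124), and it was 0.196 beside 0.120 without SalD arrays 2 and 3. This comparison shares the SalD arrays with SalD against SalV and the GenD arrays with GenD against GenV. The array values are those above. Egfl7 was 0.96 ± 0.20 (SE, adjusted p = 0.00796), Eng 0.68 ± 0.18 (SE, adjusted p = 0.0187) and Selp 0.80 ± 0.21 (SE, adjusted p = 0.0193) in GenD over SalD on the log2 scale, and each had fallen in SalD against SalV. Icam2 was 0.63 ± 0.15 (SE, adjusted p = 0.0122) and Sox18 0.63 ± 0.21 (SE, adjusted p = 0.0424). Prox1 was 1.06 ± 0.35 (SE, adjusted p = 0.0431), with GenD array 2 inside the SalD range. Vegfa was 1.06 ± 0.31 (SE, adjusted p = 0.0281), 2.08-fold higher. Cldn5 and Nos3 rose by 0.81 ± 0.24 (SE, adjusted p = 0.0281) and 0.79 ± 0.21 (SE, adjusted p = 0.02). Angpt2 fell, with -0.62 ± 0.17 (SE, adjusted p = 0.0219). Plvap and Aplnr, lower under dexamethasone in both neonatal arms, differed by 0.52 ± 0.19 (SE, adjusted p = 0.0666) and 0.54 ± 0.26 (SE, adjusted p = 0.146) and were not called. Dimmer probes gave 1.63 for Aplnr, 1.36 for Selp, 0.78 for Prox1 and 0.27, 0.93 and 0.64 for Vegfa. For Vegfb the dimmer probe gave 0.94, where the probe used gave 0.34 without a call. The dimmer Fli1 probe gave 0.56, where the probe used gave -0.49 without a call.

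No member's call in GenD against SalD was kept in all 26 alternatives. Without SalD arrays 2 and 3, which had the highest adipocyte markers, 2 genes were called in place of 10, Eng and Icam2, both higher. Without SalD array 3 alone 5 were called, and without GenD array 2 also 5. Calls over all 24651 features dropped as well, from 5654 to 2394 without SalD arrays 2 and 3. They were 3379 without SalD array 3 and 3866 without GenD array 2. With slide as a block, Cldn5, Nos3, Prox1, Selp and Vegfa were not called, and Plvap (0.72, adjusted p = 0.0297) was called higher and Erg (-1.24, adjusted p = 0.0248) and Fli1 (-0.70, adjusted p = 0.0267) lower.

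Neonatal genistein without dexamethasone, GenV against SalV, gave 0 calls in limma among the 36 genes and 3 unadjusted p-values below 0.05, where 0.00406% of all features were called. Those 3 were Sox7 with 0.82 ± 0.30 (SE, adjusted p = 0.344), Erg with -0.87 ± 0.34 (SE, adjusted p = 0.344) and Plvap with 0.47 ± 0.19 (SE, adjusted p = 0.346), chosen after their values were seen. The median difference was -0.108, beside 0.051 for all features. Without GenV array 4 it was 0.018 beside 0.057, without GenV arrays 3 and 4 it was 0.077 beside 0.080, and under normexp it was -0.120 beside -0.269. Whether the response to dexamethasone itself differed between neonatal arms was tested as GenD minus GenV minus the difference of SalD and SalV. That limma test gave 0 calls among the 36 genes, 7 unadjusted p-values below 0.05 and 0% called of all features. The median of the 36 genes was 0.335, beside 0.130 for all features. Of the 36, 30 were positive and 6 negative, where 40.3% of all features were negative. Without GenV arrays 3 and 4 the median was 0.126 beside 0.011, and under normexp 0.403 beside 0.640. The smallest unadjusted p-values belonged to Nos3, 0.94 ± 0.30 (SE, adjusted p = 0.21), and Egfl7, 0.87 ± 0.29 (SE, adjusted p = 0.216). The 17 calls in the control arm and 4 in the genistein arm therefore do not show a difference between the arms.

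Genes of related pathways were followed from 5 lists. Beside the counts of each list, 8.45% of all features were called higher and 14.6% lower in SalD against SalV. In GenD against GenV, 2.49% of all features were called higher and 2.8% lower. Of 32 tested other blood endothelial genes, 3 rose and 9 fell in SalD against SalV, and 2 rose and 3 fell in GenD against GenV. The median of the 32 was -0.292 in SalD over SalV, beside -0.160 for all features, and -0.070 in GenD over GenV, beside -0.015. Gja5, a gap junction protein of arteries, differed by -1.92 ± 0.26 (SE, adjusted p = 0.000483) and Myct1 by -1.54 ± 0.30 (adjusted p = 0.00343) in SalD over SalV. Lmo2, a transcriptional cofactor of blood and endothelium, differed by -1.25 ± 0.17 (adjusted p = 0.00041), and Sox13 rose by 1.42 ± 0.27 (adjusted p = 0.00282). In GenD over GenV, Myct1 differed by -1.59, Lmo2 by -0.95 and Mmrn2 by -0.86, and S1pr1, a receptor for sphingosine 1-phosphate on endothelium, rose by 0.89 (adjusted p = 0.00633, 0.00441, 0.00748 and 0.00956). Thus Lmo2 and Myct1 fell in both dexamethasone comparisons.

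Of 41 Notch, semaphorin and other angiogenic genes, 6 rose and 4 fell in SalD against SalV, and 3 rose and 1 fell in GenD against GenV. The median of the 41 was 0.108 in SalD over SalV, beside -0.160 for all features, and 0.061 in GenD over GenV, beside -0.015. Esm1, a marker of sprouting tip cells, differed by -2.0 ± 0.32 (SE, adjusted p = 0.00114) and Plxnd1, a semaphorin receptor, by -1.58 ± 0.19 (adjusted p = 0.000156) in SalD. Adm, the vasodilator adrenomedullin, rose by 1.40 ± 0.24 (adjusted p = 0.00191) and Id1 by 1.23 ± 0.24 (adjusted p = 0.00374). In GenD over GenV, Adm rose by 1.42, Notch4 by 1.01 and Jag2 by 0.78, and Plxnd1 fell by 0.79 on the log2 scale.

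Of 14 other lymphatic genes, 2 rose and 5 fell in SalD against SalV, and 2 rose and 2 fell in GenD against GenV. Lyve1, the hyaluronan receptor of lymphatic endothelium and of some macrophages, rose by 2.12 ± 0.22 in SalD (SE, adjusted p = 6.61e-05) and by 1.43 ± 0.22 in GenD (adjusted p = 0.00185). Ackr4, a scavenging chemokine receptor, rose by 1.29 ± 0.17 in SalD (adjusted p = 0.000373) and 0.93 ± 0.17 in GenD (adjusted p = 0.00572). Nrp2, a coreceptor of Flt4, differed by -1.34 ± 0.21 in SalD (adjusted p = 0.00112) and -1.02 ± 0.21 in GenD (adjusted p = 0.0123). Ccl21a, a chemokine of lymphatic vessels with near-identical copies that its probe may not tell apart, differed by -1.38 and -1.34. Lymphatic genes therefore moved in both directions, with Lyve1 against Pdpn, Flt4, Prox1, Vegfc and Nrp2 in SalD. The median of the 14 was -0.074 in SalD over SalV, beside -0.160 for all features, and -0.014 in GenD over GenV, beside -0.015.

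Of 17 hypoxia-induced genes, 6 rose and 1 fell in SalD against SalV, and 3 rose and none fell in GenD against GenV. The median of the 17 was 0.384 in SalD over SalV, beside -0.160 for all features, and 0.142 in GenD over GenV, beside -0.015. The glucose transporter gene Slc2a1 rose by 1.36 ± 0.20 (SE, adjusted p = 0.000742) in SalD, and the collagen-modifying enzyme P4ha2 by 1.72 ± 0.21 (adjusted p = 0.000201). P4ha2, Bnip3 and Hk2 rose by 1.27, 1.11 and 0.98 in GenD. Vegfa, itself a hypoxia-induced gene, was not called in SalD. Of 15 NF-kappaB targets of activated endothelium, 1 rose and 6 fell in each dexamethasone comparison. The median of the 15 was -0.874 in SalD over SalV and -0.951 in GenD over GenV, beside the same medians of all features. Il1b differed by -3.59 ± 0.41 in SalD (SE, adjusted p = 0.000123) and -3.36 ± 0.41 in GenD (adjusted p = 0.000298), and Ccl2 by -3.47 ± 0.39 (adjusted p = 0.000114) and -2.79 ± 0.39 (adjusted p = 0.000785). Cxcl10 differed by -2.50 and -2.52 and Tnf by -1.94 and -1.15, in SalD and in GenD over their vehicle groups.

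Markers of other cells were examined in 9 lists. Beside their counts, 14.6% of all features were called lower and 8.45% higher in SalD against SalV. In GenD against GenV these shares were 2.8% and 2.49%. The mean deviation of the 36 genes from their 16-array means lay at -0.17 to -0.019 in GenD, -0.12 to 0.29 in GenV, -0.43 to -0.20 in SalD and 0.16 to 0.34 in SalV, so SalD and SalV did not overlap. For 9 pericyte markers the ranges were -0.17 to 0.12, -0.55 to 0.48, -0.49 to -0.050 and 0.014 to 0.36 in the same group order, and 2 of 9 fell in SalD against SalV, Kcnj8 and Notch3. For 8 platelet markers they were -0.19 to 0.30, -0.25 to 0.70, -0.73 to 0.072 and -0.0040 to 0.26. In SalD 3 of these 8 fell, Gp9, Gp1bb and Itga2b, as did Selp and Vwf, which platelets also hold. In GenD against GenV 2 of the 8 fell. For 12 leukocyte markers they were -0.43 to 0.12, 0.16 to 0.72, -0.64 to -0.10 and -0.18 to 0.45, and Cd52, Coro1a and Ptprc fell in both dexamethasone comparisons.

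Adipocyte markers ran the other way, and 6 of 10 rose in SalD against SalV. Their mean deviations spanned -1.60 to 1.17 in GenD, -0.43 to 0.71 in GenV, -0.99 to 2.41 in SalD and -3.43 to -0.28 in SalV. Smooth muscle markers spanned -0.57 to 0.49, -0.77 to 0.32, -0.69 to 0.31 and 0.23 to 0.52, and Actg2 and Acta2 fell in SalD. All 9 pericyte and all 12 leukocyte markers on the array were tested, and among platelet markers Gp1ba and Gp9 were well above background on 6 and 7 of 16 arrays. Of 9 tested stroma markers, 1 rose and 1 fell in SalD against SalV, and 2 rose and 3 fell in GenD against GenV. Their mean deviations spanned -0.10 to 0.11 in GenD, -0.39 to 0.15 in GenV, -0.097 to 0.13 in SalD and -0.024 to 0.060 in SalV. None of 10 epithelium markers was called by limma in either comparison, with unadjusted p-values below 0.05 for Cdh1 and Esrp1 in SalD against SalV (0.0344 and 0.0328). Epithelium spanned -0.13 to 0.52, -0.34 to 0.61, -0.34 to 0.23 and -0.39 to -0.032 in the same group order. Of 8 mesothelium markers, 1 rose and 1 fell in SalD against SalV and 1 fell in GenD against GenV, with spans of -0.41 to -0.14, -0.25 to 0.45, -0.41 to 0.28 and -0.41 to 0.27. None of 4 tested red blood cell markers reached an unadjusted p below 0.05 in either comparison. Red blood cell deviations spanned -0.20 to 1.48 in GenD, 0.013 to 0.41 in GenV, -1.49 to 0.82 in SalD and -0.59 to 0.85 in SalV. The part of these cells in the differences of the endothelial genes was not tested. Without SalD arrays 2 and 3, 12 endothelial genes fell in SalD against SalV, and without SalV array 1, 11. Of all 24651 features, 2490 and 1847 were called lower in these 2 settings, beside 3587 with all arrays. Within slides 1, 3 and 4, the ones that hold both groups, the median of the 36 genes in SalD over SalV was -0.581, -0.547 and -0.540, beside -0.249, -0.109 and -0.083 for all features. In GenD over GenV it was -0.402, -0.103 and -0.381 within slides 2, 3 and 4, beside -0.054, -0.014 and -0.048.

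**Figure D4:**
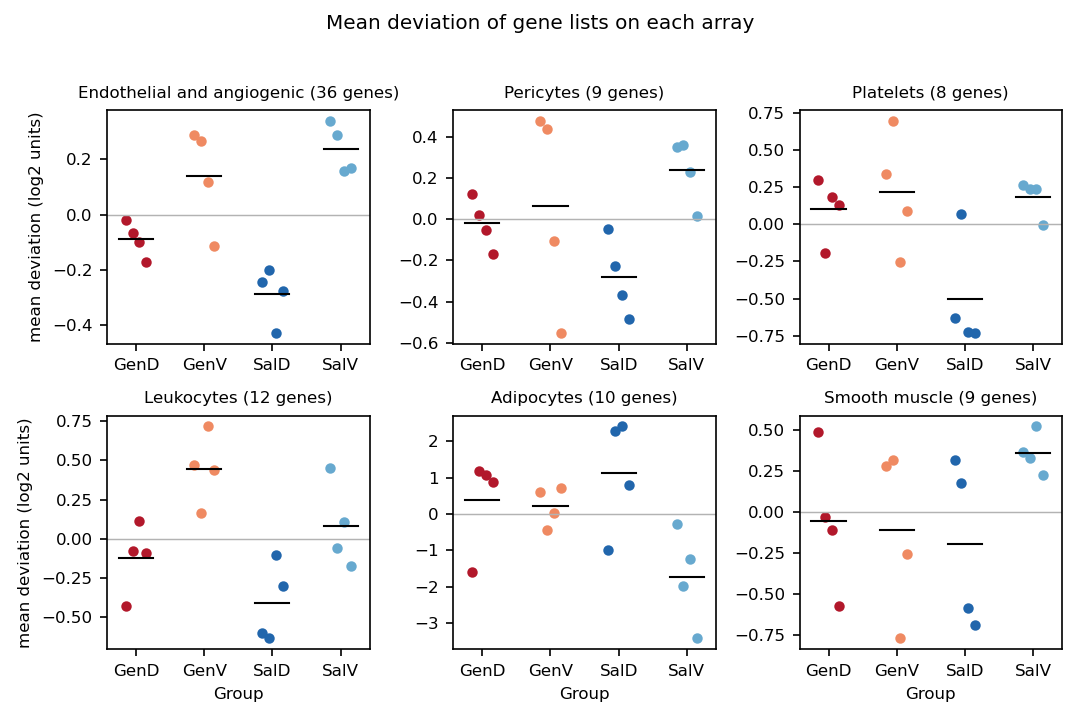
Mean deviation of each gene list from its 16-array means, in log2 units, on each array in GenD, GenV, SalD and SalV, with a bar at the group mean. The endothelial and angiogenic genes are lowest on average in SalD, and so are the pericyte, platelet, leukocyte and smooth muscle markers. Adipocyte markers lie highest in SalD arrays 2 and 3.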

How the data were processed

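Whole-uterus RNA was hybridised to 16 arrays of Agilent design 14868, 400 ng per sample labelled with Cy3, per the labels. The deposited values are scanner intensity per spot, background-subtracted by the authors' Feature Extraction software and not normalized between arrays, per the file headers. The headers name version 12.0.0.7 and the submitters' processing notes version 9.5. Spot flags of 0 or 1, deposited beside the intensity, gave outliers and signals well above background. The deposited value table of the series held the same intensity, with 0 as the largest difference, and gave identical calls.

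Signals were taken as log2 minus the 75th percentile of each array. Outlier spots were set to missing, repeated spots averaged, and 807 probes with a missing value dropped. The 32598 probes whose signal was well above background on 4 or more of the 16 arrays were kept. RefSeq accessions without version, 28223 of 29245 probes matched to RefSeq genes of GRCm38.p6, gave symbols, and the brightest kept probe stood for each of 24651 features. The 37 genes had 55 probes, with several probes for 14 genes. The array grid and the gene table use different builds, so coordinates are given for RefSeq promoter windows only.

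A model of 4 group means over 16 arrays was fitted with limma 3.58.1 (lmFit and eBayes, two-sided) in R 4.3.3 with version 1.17.8 of the data.table package, and p-values were adjusted by Benjamini-Hochberg over all features within each of 5 comparisons. Scripts were tested on simulated data. Python 3.11.15 with matplotlib 3.10.9 drew the figures. The members, the 5 pathway lists and the 9 marker lists were chosen with earlier results of these data known. Genes called in any comparison are given on every array and the others by ranges. From each pathway list, up to 4 called genes with the largest change per comparison are named. Alternatives were quantile and median scaling, normexp with offset 50, filters on dim probes, the mean of probes, slide or replicate number as a block, and arrays left out.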

Additional observations from a re-analysis of the deposited data

Results flagged for a closer look

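In 7 of 148 combinations of gene and group, 1 of the 4 arrays lay far from the other 3, past the 95% critical value of Dixon's criterion. Chance gives about 1 such array in 20 groups, and 7 of 148 is near that. For Pecam1, GenD array 2 read -0.387 in scaled log2 signal, above the other GenD arrays. The same array was low for Vegfb, at 2.23. For Plvap, SalD array 2 read -0.608, the highest of its group and still below all SalV arrays. Acvrl1 read -0.208 on SalV array 3, above the other SalV arrays. Angpt1 on SalD array 2 read -4.23 and Vcam1 on SalD array 4 read 0.800, each above the rest of SalD. Apln read -1.26 on SalV array 1, above the rest of SalV.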

How the results depend on the processing

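Over 26 alternatives, no called difference of these genes changed sign. In SalD against SalV, median scaling gave 11 called genes in place of 17, with 2 higher and 9 lower, and leaving out each array gave 11 (without SalV array 1) to 18. In GenD against GenV the count was 4, and 2 under normexp, without a filter on dim probes and with the mean of the probes, and 2 to 5 with each array left out. Aplnr and Plvap were called there under all 26. In GenD against SalD the count was 10, 4 under normexp, 6 with median scaling (4 higher, 2 lower), 2 without SalD arrays 2 and 3 together, and 5 to 10 with each array left out. Interaction and GenV against SalV stayed at 0 of 36 in each alternative. Counts over all features moved too: in SalD against SalV 5669, 3326 under normexp, 3585 without SalD arrays 2 and 3, and 3107 to 5883 with each array left out. The split of 2082 higher and 3587 lower was 3431 and 1864 with median scaling. In GenD against GenV 1303 became 370 under normexp, 831 with slide as a block and 719 to 1230 with each array left out. In GenD against SalD 5654 (4078 higher, 1576 lower) became 3297 under normexp, 2394 without SalD arrays 2 and 3, and 3293 to 5972 with each array left out, and the split was 2615 and 2030 with median scaling. Apart from what the alternatives themselves change (fewer arrays or probes), the cause was not tested. Slide 5 holds 1 array, so a slide block leaves SalV array 3 out of the comparison. With the replicate number as a block, 16 genes were called in SalD against SalV (1 higher, 15 lower), 5 in GenD against GenV, 11 in GenD against SalD and 0 in the others. Over all features that block gave 6080, 1356 and 5799 calls in these 3 comparisons. Same-numbered arrays of different groups had residual correlations of -0.368 to 0.378, and 5 of 16 arrays correlated best with their own number, so the numbers were not treated as pairs. Prox1 and Sele, dim on many arrays, are limited by signal over background.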
